A study of Mus musculus with 6 samples.

Results

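Chemokines and their receptors were followed in splenocytes, the cells isolated from the spleen, of lupus-prone mice that carried an estrogen or an empty implant. The members were the rows whose RefSeq transcript maps to a mouse gene symbol of the chemokine ligand (Ccl, Cxcl, Cx3cl, Xcl) or receptor (Ccr, Cxcr, Cx3cr, Xcr, Ackr, Ccrl2) series, so no measured value chose them. They were 44 of the 561 genes on a NanoString mouse immunology panel, 25 ligands and 19 receptors. All mice were female NZB/WF1, an F1 hybrid prone to lupus. The implant was placed at 6 to 7 weeks of age and held 17-beta estradiol (E2), 17alpha-ethinyl estradiol (EE) or nothing (placebo), and spleens were taken after 9 weeks. Each group held 2 samples, which are named by the numbers in their labels: E2 samples 1 and 2, EE samples 11 and 14, and placebo samples 22 and 26. The labels used here state neither implant doses nor which mice lie behind a sample, so p-values measure only the spread between these samples.

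Chemokines are small secreted proteins that guide leukocytes along gradients, and they are classed as CC, CXC, CX3C or C by the spacing of their first cysteines. Their receptors are seven-transmembrane proteins that signal through inhibitory G proteins, while atypical receptors bind chemokines or other attractants without that signal. In the spleen, Ccr7 and its ligands place T cells and dendritic cells in the T cell zone, Cxcr5 and Cxcl13 place B cells in follicles, and inflammatory ligands recruit monocytes, granulocytes and effector lymphocytes. Of the implanted steroids, E2 is made by the ovary, whereas EE carries an added ethynyl group and is a component of oral contraceptives.

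The nCounter system counts colour-coded probes hybridised to RNA, without amplification. The deposited values were taken as already scaled. The geometric mean of 12 named reference genes and 2 further rows was level over the 6 samples within 0.06%. The 2 rows were the best of 66 pairs of unnamed rows tried, and the 12 named genes alone varied by 6.07%. Values are therefore treated as reference-scaled counts, and gene totals ranged from 646299 to 863942 per sample. The background level of a sample, 2 SD above the mean of its 8 negative controls, lay between 10.1 and 13.7. A mean of at least 20 over the 6 samples was required for a test, which kept 457 genes and 30 members, 15 of the 25 ligands and 15 of the 19 receptors. The members next to this limit were Cxcl13 (mean 16.8, not tested) and Ccr10 (mean 21.2, tested). Between samples of a group the members differed by a median of 0.26 (E2), 0.23 (EE) and 0.24 (placebo) on the log2 scale, and the widest gap was that of Ccl9 between the placebo samples, 1.03.

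Marker genes of the main spleen cell types moved with the implant, and their part in the results below was not tested. All 16 tested T cell markers, all 11 B cell markers and all 11 markers of natural killer (NK) and cytotoxic cells were lower in each estrogen group than in placebo. The summed T cell markers lay between 12369 and 14988 in E2, between 10032 and 11245 in EE and between 29066 and 34077 in placebo. Those of B cells lay between 27070 and 32108, between 24475 and 25088, and between 46003 and 50753 in the same order. NK and cytotoxic markers summed to 1235 and 1805 in E2, 1298 and 1493 in EE, and 4322 and 4563 in placebo. Neutrophil markers rose in 9 of 9 cases under E2 and in 7 of 9 under EE, with sums of 183580 and 208945 in E2, 82143 and 93945 in EE, and 10018 and 6255 in placebo. Monocyte and macrophage markers were mixed, with 1 of 7 higher and 2 lower under E2, 5 higher and 1 lower under EE, and sums of 6656 and 6758, 10033 and 11149, and 6652 and 5687. Erythroid, megakaryocyte and platelet markers summed to 16023 and 16260 in E2, 21322 and 20435 in EE, and 3239 and 2503 in placebo. Dendritic cell markers were lower in 5 of 5 cases under each estrogen, with sums from 4163 to 5108 in the estrogen groups and 7862 and 8269 in placebo; Ccr7 is on this list and is also a member. Panel-scaled, the markers lower under E2 and EE numbered 14 and 16 of 16 for T cells, 5 and 7 of 11 for B cells, 9 and 9 of 11 for NK and cytotoxic cells, and 1 and 1 of 5 for dendritic cells. Monocyte and macrophage markers were then higher in 5 of 7 cases under each estrogen. No marker on the panel was at or below background in all 6 samples. In such bulk samples fewer cells of a type and less RNA per cell cannot be told apart.

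Under E2, 6 of the 30 tested members were higher and 15 lower than in placebo, that is 20% and 50%, where 13.8% of all 457 genes were higher and 59.5% lower. Under EE, 5 were higher and 18 lower, or 16.7% and 60%, against 15.8% and 63.5% of all genes. These shares lie near those of the whole panel and are no result about the members. Estrogen and placebo samples did not overlap for 21 of the 30 members under E2 and for 28 under EE. Most of the 457 tested genes were likewise without overlap under each estrogen. Their share was larger than that of the members under E2 and slightly smaller under EE. Lack of overlap, given below for single members, therefore does not set a member apart from the panel. The tests used limma on log2(value + 1) with an adjusted p under 0.05 over all genes, and fold changes below are log2 differences on that scale ± SE. Relative to the reference genes the median tested gene was itself at -0.56 in E2 and -0.69 in EE. With each sample scaled on the panel median instead, 7 members were higher and 5 lower under E2 (29.3% and 23.0% of all genes) and 8 higher and 6 lower under EE (31.1% and 27.8%). Both scales are therefore given, the second as "panel-scaled". The prior in the main fit carried 232 degrees of freedom against 3 residual ones, so each gene's own spread counted for little and very small p-values rest on the shared spread. For many calls that held throughout, the highest adjusted p over all 18 alternatives is therefore given beside the main one as "at most". For members with a mean under 50 it is the highest over the 17 run. Where a named call was lost, an alternative that ended it is named instead.

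**Figure D1:**
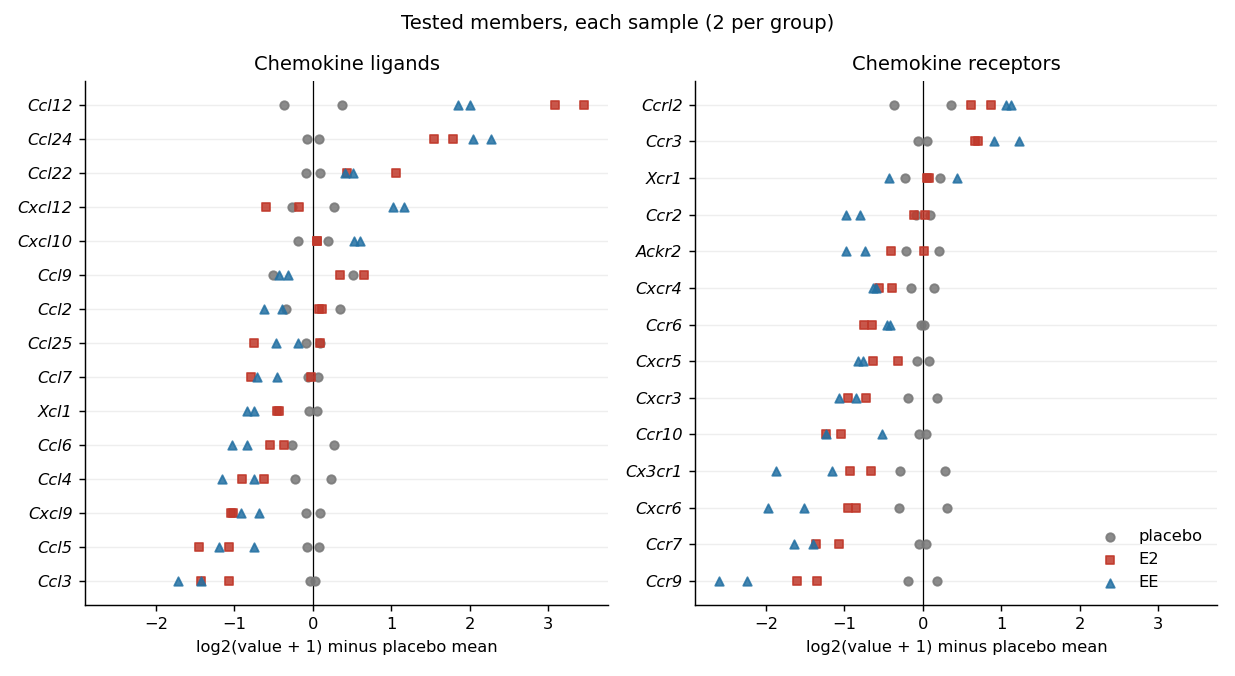
Each point is 1 sample of a tested member, as log2(value + 1) minus the placebo mean of that gene (x axis); 15 ligands are on the left and 14 receptors on the right, with 2 samples per group. Ccl12 and Ccl24 lie farthest right and Ccr9 farthest left, and EE samples of Cxcl12 stand apart from the other groups.

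Among the ligands, 4 of 15 rose and 5 fell under E2, and 3 rose and 6 fell under EE, where 13.8% and 59.5%, and 15.8% and 63.5%, of all genes did so. Panel-scaled, 4 ligands were higher and 3 lower under E2, against 29.3% and 23.0% of all genes. Under EE, 5 were higher and 1 lower, against 31.1% and 27.8%. The largest increase under E2 was that of Ccl12, a mouse chemokine that attracts monocytes through Ccr2. It was counted at 65 and 84 in E2 samples 1 and 2, at 27 and 30 in EE samples 11 and 14, and at 9 and 5 in placebo samples 22 and 26. It passed the filter only through the groups in which it was high, with means of 74.5 in E2, 28.5 in EE and 7 in placebo. The 3 groups did not overlap, and both placebo values were at or below background, so only a bound can be given there: Ccl12 was at least 5.84-fold higher in E2 and at least 2.30-fold higher in EE, against the background level of each placebo sample. Both were called in the fit, which took the placebo values as measured (adjusted p = 2.81e-16 for E2, at most 0.000155 over the alternatives, and 3.24e-07 for EE, at most 0.00102). Ccl2 and Ccl7, which also act through Ccr2, were not called against placebo, with Ccl2 at 39 and 38 in E2, 23 and 27 in EE, and 46 and 28 in placebo. Ccl7 lay between 19 and 35 in all 6 samples. Under EE both were lower when scaled on the positive controls (-0.83 and -0.90, adjusted p = 0.0216 and 0.019), Ccl2 also without placebo sample 26 (adjusted p = 0.0184) and Ccl7 also without a trend (adjusted p = 0.0436). Ccl11 and Ccl8 were too low to be tested, with no value above 19.

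Ccl24 (eotaxin-2), which macrophages make and which attracts eosinophils through Ccr3, rose under both estrogens. Its values were 382 and 321 in E2, 455 and 532 in EE, and 104 and 116 in placebo, with no overlap between any of the groups. The differences from placebo were 1.66 ± 0.17 for E2 (adjusted p = 3.39e-17, at most 6.80e-05) and 2.15 ± 0.17 for EE (adjusted p = 6.08e-26, at most 1.09e-05), which is 3.17-fold and 4.45-fold. Panel-scaled they were 2.22 and 2.83. Its log2 differences lay above those of all 7 tested monocyte and macrophage markers, of which the highest stood at 0.70 under E2 and 1.04 under EE.

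Ccl22, a dendritic cell product that attracts Ccr4-bearing T cells, was counted at 85 and 55 in E2, 58 and 54 in EE, and 38 and 43 in placebo. Every estrogen sample lay above both placebo samples. It rose under E2 by 0.74 ± 0.28 (adjusted p = 0.0116), and this call was lost without E2 sample 1 (0.43, adjusted p = 0.221) or placebo sample 22 (adjusted p = 0.0618). Under EE it stood at 0.46 ± 0.28 (adjusted p = 0.116), and at 1.13 panel-scaled with an adjusted p = 0.00205. Ccl9, a CC ligand of myeloid cells in rodents, was 310 and 381 in E2, 180 and 195 in EE, and 347 and 170 in placebo. It was called higher under E2 (0.50 ± 0.18, adjusted p = 0.0107) although placebo sample 22 lay between the E2 samples, and without placebo sample 26 the difference was -0.01 (adjusted p = 0.951). Its call was also lost without either E2 sample, where adjusted p was 0.0699 and 0.326.

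Ccl3 (MIP-1 alpha) was 228 and 178 in E2, 145 and 178 in EE, and 491 and 469 in placebo, and all 4 estrogen samples lay below both placebo samples. It fell by 1.25 in E2 (SE 0.18, adjusted p = 1.45e-10, at most 0.0022) and by 1.57 in EE (SE 0.18, adjusted p = 1.49e-15, at most 0.000367). Ccl5 (RANTES), a product of T and NK cells, was 734 and 563 in E2, 673 and 920 in EE, and 1634 and 1468 in placebo. It fell by 1.27 in E2 (adjusted p = 9.81e-16, at most 0.00178) and by 0.98 in EE (adjusted p = 1.28e-10). Panel-scaled, Ccl3 was still lower under both estrogens (-0.69 and -0.89), while Ccl5 was lower under E2 (-0.70) and passed no threshold under EE (-0.29, adjusted p = 0.0948). Ccl4 (MIP-1 beta), with 44 and 36 in E2, 30 and 40 in EE and 80 and 58 in placebo, fell by 0.76 and 0.96, but both calls were lost panel-scaled (adjusted p = 0.523 and 0.368). They were also lost without E2 sample 2 (adjusted p = 0.131) or placebo sample 22 (0.129) in the first case and without EE sample 11 (0.0638) in the second. Ccl6, a further rodent CC ligand of myeloid cells, was 110 and 97 in E2, 69 and 79 in EE, and 171 and 118 in placebo. It fell under EE by 0.93 (adjusted p = 9.04e-05) and stood at -0.46 under E2 (adjusted p = 0.06), and panel-scaled it passed the test under neither (-0.26 and 0.10).

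Of the CXC and C ligands, Cxcl9, the interferon-gamma-induced ligand of Cxcr3, fell under both estrogens. It was 100 and 102 in E2, 110 and 129 in EE, and 195 and 222 in placebo, without overlap against placebo. The differences were -1.04 ± 0.21 for E2 (adjusted p = 3.20e-06) and -0.80 ± 0.21 for EE (adjusted p = 2.69e-04), or -0.48 (adjusted p = 0.0288) and -0.12 (adjusted p = 0.536) panel-scaled. Cxcl10, induced by interferons and sharing that receptor, did not follow it, with 38 and 38 in E2, 53 and 56 in EE, and 32 and 42 in placebo. Its differences were 0.05 and 0.56, neither past the threshold (adjusted p = 0.879 and 0.0742), and under EE it was higher without placebo sample 26 (0.75, adjusted p = 0.0269) and panel-scaled (1.23, adjusted p = 0.00137).

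Cxcl12, a stromal ligand that holds blood progenitors and neutrophils in marrow through Cxcr4, rose under EE. It was 82 and 90 in EE, 35 and 26 in E2, and 33 and 48 in placebo, so the EE samples lay above all 4 others while E2 and placebo overlapped. Against placebo the difference was 1.09 ± 0.29 for EE (adjusted p = 3.43e-04, at most 0.0175) and -0.39 ± 0.29 for E2 (adjusted p = 0.217). Xcl1, which NK and CD8 T cells release to attract Xcr1-bearing dendritic cells, was 231 and 225 in E2, 184 and 173 in EE, and 299 and 323 in placebo. It fell by 0.45 (adjusted p = 0.0203) and 0.80 (adjusted p = 2.54e-05), but panel-scaled the values were 0.12 and -0.12 and neither passed (adjusted p = 0.488 and 0.468). The E2 call was lost without E2 sample 2 (adjusted p = 0.0645) or placebo sample 26 (0.0816). Ccl25, the ligand of Ccr9, lay between 18 and 33 in all samples and passed neither test (-0.33 for each estrogen).

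**Figure D2:**
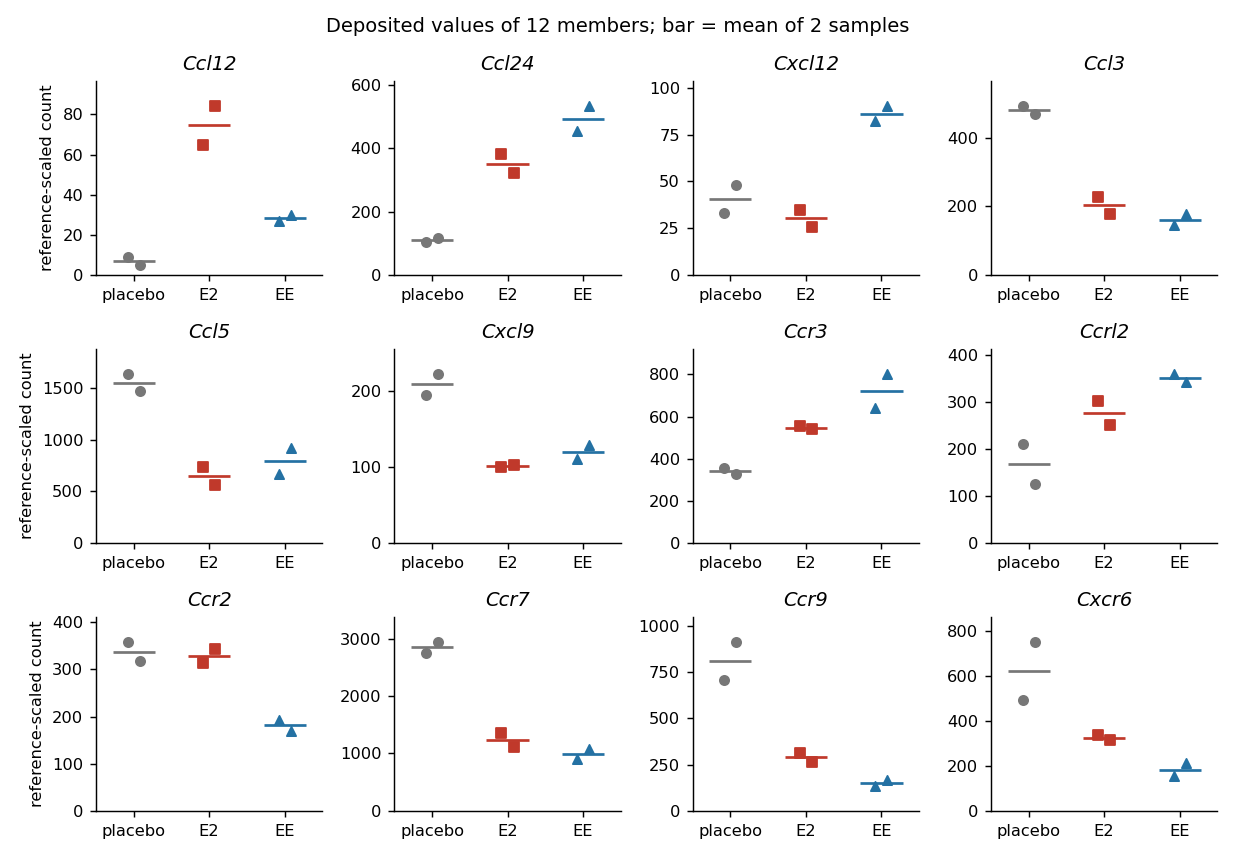
Reference-scaled counts (y axis, from 0) of 12 members in the placebo, E2 and EE groups; points are samples and bars are means of 2. Ccl12, Ccl24, Ccr3 and Ccrl2 are higher in each estrogen group than in placebo, Cxcl12 is high in EE, and Ccr2 is low in EE.

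Among the receptors, 2 of 15 rose under each estrogen, against 13.8% and 15.8% of all genes. While 10 fell under E2 and 12 under EE, 59.5% and 63.5% of all genes did so. Panel-scaled, 3 receptors were higher and 2 lower under E2, against 29.3% and 23.0% of all genes. Under EE, 3 were higher and 5 lower, against 31.1% and 27.8%. Ccr3 and Ccrl2 were the receptors that rose on the deposited scale. Ccr3, the eotaxin receptor of eosinophils and the partner of Ccl24, was 557 and 539 in E2, 641 and 801 in EE, and 355 and 326 in placebo. The groups were in the order placebo, E2, EE without overlap, and the differences from placebo were 0.69 ± 0.15 (adjusted p = 2.33e-05, at most 0.00424) and 1.07 ± 0.15 (adjusted p = 6.19e-11, at most 3.46e-04). Ccrl2, which binds the attractant chemerin without classical signalling, was 302 and 251 in E2, 360 and 343 in EE, and 212 and 127 in placebo. It rose by 0.74 ± 0.18 in E2 and 1.09 ± 0.18 in EE (adjusted p = 1.07e-04 and 1.24e-08). The E2 call of Ccrl2 was lost without placebo sample 26 (0.38, adjusted p = 0.0845), while the EE call held under all 18 alternatives. Panel-scaled, Ccr3 stood at 1.25 and 1.76, and Ccrl2 at 1.77 under EE.

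Receptors of T cells fell, beside T cell markers that fell by a median of 1.13 under E2 and 1.48 under EE. Ccr7, which guides naive T cells and dendritic cells to T cell zones, was 1362 and 1112 in E2, 912 and 1074 in EE, and 2752 and 2940 in placebo. Its differences were -1.21 ± 0.13 (adjusted p = 5.41e-16, at most 3.76e-04) and -1.52 ± 0.13 (adjusted p = 2.43e-23, at most 7.96e-05), and they lay inside the range of the 16 T cell markers under each estrogen. Ccr9, the gut and thymus homing receptor for Ccl25, fell most of all members, with 314 and 263 in E2, 132 and 169 in EE, and 709 and 912 in placebo. The differences were -1.48 ± 0.17 (adjusted p = 2.94e-15, at most 5.73e-04) and -2.42 ± 0.17 (adjusted p = 8.39e-33, at most 1.53e-05), or 2.79-fold and 5.35-fold lower. Under EE this was below the lowest T cell marker, which stood at -2.22, while under E2 3 of the 16 markers were lower still. Ccr9 and Ccr7 were also lower panel-scaled, at -0.92 and -0.64 under E2 and at -1.74 and -0.84 under EE.

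Cxcr6, a receptor of NKT cells and tissue-resident T cells, was 336 and 314 in E2, 154 and 212 in EE, and 491 and 751 in placebo. It fell by 0.90 in E2 (SE 0.17, adjusted p = 6.71e-07) and by 1.74 in EE (SE 0.17, adjusted p = 8.81e-20, at most 7.81e-04). Panel-scaled it was -0.34 under E2, not past the threshold (adjusted p = 0.153), and -1.06 under EE. Cxcr3, carried by Th1 and cytotoxic cells, was 301 and 257 in E2, 238 and 275 in EE, and 437 and 567 in placebo, and fell by 0.84 and 0.96 (adjusted p = 2.72e-06 and 6.97e-08). Its log2 difference lay above those of 15 of the 16 T cell markers under E2 and of all 16 under EE, with no test of that gap, and both calls were lost panel-scaled (adjusted p = 0.111 and 0.108). Ccr10, on plasma cells and skin-homing T cells, fell from 33 and 31 in placebo to 13 and 15 in E2 and 22 and 13 in EE, values close to background. It passed the filter only through placebo, with means of 32 there, 14 in E2 and 17.5 in EE. Its calls (-1.14 and -0.88, adjusted p = 0.00502 and 0.0287) were lost panel-scaled (0.175 and 0.602), and without E2 sample 1 (0.0519) or, for EE, without EE sample 14 (0.315) or placebo sample 22 (0.0557).

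Receptors that place B cells fell under each estrogen on the deposited scale, beside B cell markers with medians of -0.80 under E2 and -1.01 under EE. Cxcr5, the follicle-homing receptor, was 1170 and 934 in E2, 856 and 817 in EE, and 1530 and 1378 in placebo. Ccr6, on B cells and Th17 cells, was 814 and 754 in E2, 950 and 928 in EE, and 1254 and 1287 in placebo. Cxcr4, the receptor of Cxcl12 on nearly all leukocytes, was 3172 and 2821 in E2, 2749 and 2671 in EE, and 4598 and 3748 in placebo. All estrogen samples lay below both placebo samples for each of the 3 genes. Cxcr5 fell by 0.47 and 0.80, Ccr6 by 0.70 and 0.44, and Cxcr4 by 0.47 and 0.62 under E2 and EE (highest adjusted p = 0.0025), but panel-scaled none of the 3 was lower, Cxcr4 turned to 0.09 and 0.07, Cxcr5 to 0.09 under E2, and Ccr6 was higher under EE (0.25, adjusted p = 0.036). Under EE, the log2 differences of Ccr6 and Cxcr4 lay above those of all 11 B cell markers, and under E2 those of Cxcr5 and Cxcr4 did. The E2 call of Cxcr5 was lost without E2 sample 2 (adjusted p = 0.08) and the EE call of Ccr6 without EE sample 14 (adjusted p = 0.0563).

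Ccr2, which lets inflammatory monocytes leave the marrow and binds Ccl2, Ccl7 and Ccl12, was 313 and 344 in E2, 193 and 170 in EE, and 358 and 317 in placebo. It was -0.04 ± 0.17 under E2 (adjusted p = 0.847) and fell by 0.89 under EE (adjusted p = 1.18e-06), and panel-scaled these became 0.52 (adjusted p = 0.0166) and -0.21 (adjusted p = 0.269). Cx3cr1, the fractalkine receptor of patrolling monocytes and cytotoxic cells, was 57 and 47 in E2, 24 and 40 in EE, and 111 and 74 in placebo. It fell by 0.80 and 1.52 (adjusted p = 0.00754 and 3.39e-07), and panel-scaled only the EE call held of the pair (-0.24 and -0.85, adjusted p = 0.508 and 0.0282). The E2 call was also lost without E2 sample 2 (adjusted p = 0.131) or placebo sample 22 (0.172). Ackr2, a scavenger of inflammatory CC ligands, was 127 and 94 in E2, 63 and 75 in EE, and 108 and 145 in placebo, fell by 0.86 under EE (adjusted p = 4.32e-04) and stood at -0.19 under E2 (adjusted p = 0.45), but panel-scaled it was -0.18 under EE (adjusted p = 0.457). Xcr1, the receptor of cross-presenting dendritic cells, ranged from 32 to 59 with the groups overlapping, at 0.06 and 0.00.

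**Figure D3:**
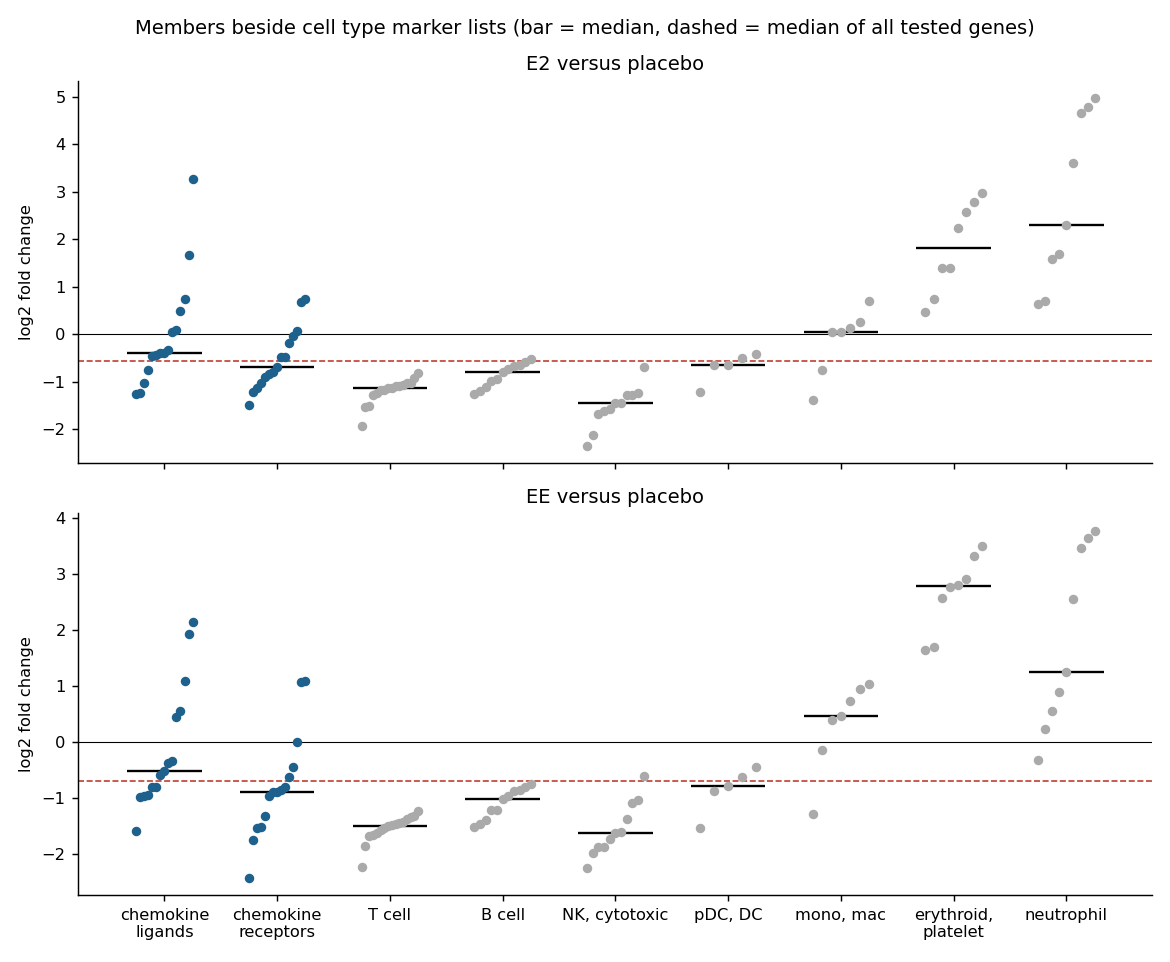
Log2 fold change against placebo (y axis) of the 15 ligands and 15 receptors (blue) beside 7 cell type marker lists (grey), for E2 (top) and EE (bottom); each point is a gene, bars are medians and the dashed line is the median of all 457 tested genes. Receptors had medians of -0.70 and -0.88 and spread from the level of T cell markers to above 0, while ligands had medians of -0.39 and -0.51.

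Textbook ligand and receptor partners were set side by side. Ccl24 and Ccr3 were higher on both sides under each estrogen, and Cxcl9 and Cxcr3 were lower on both sides. Panel-scaled, Cxcr3 lost both its calls and Cxcl9 its call under EE. Under EE, Cxcl12 was higher with Cxcr4 lower and Ccl12 was higher with Ccr2 lower, but neither receptor was lower when panel-scaled. Other partners had a call on only 1 side. On the deposited scale Cxcl10 and Ccl25 were not called beside lower Cxcr3 and Ccr9 under each estrogen. Xcr1 was not called beside lower Xcl1. Both estrogen comparisons share the placebo samples.

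The direct comparison set EE against E2 after the same 9 weeks of treatment. Without stated doses, it is unknown whether they matched. Among the 30 members, EE samples had 2 higher and 6 lower than E2 samples, where 5.25% of all genes were higher and 10.9% lower. Panel-scaled, 4 were higher and 4 lower (7.66% and 5.47% of all genes). Cxcl12 was higher in EE by 1.48 ± 0.29 (adjusted p = 1.90e-05, at most 0.031), with all EE values above all E2 values, or 2.79-fold. Ccl24 was higher by 0.49 ± 0.17 (adjusted p = 0.0358), but leaving out any single E2 or EE sample ended that call (adjusted p from 0.0753 to 0.453).

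Lower in EE than in E2 were Ccr9, Ccr2, Cxcr6, Ccl9, Ccl12 and Ackr2. Ccr9 differed by -0.94 ± 0.17 (adjusted p = 2.78e-06, at most 0.032) and Ccr2 by -0.85 ± 0.17 (adjusted p = 3.81e-05, at most 0.0269), and their calls and that of Cxcl12 held under all 18 alternatives. The T cell markers stood at a median of -0.35 in the same comparison, from -0.62 to -0.08, so that Ccr9 was lower than all 16. The 7 monocyte and macrophage markers lay between 0.04 and 0.81, all above Ccr2. The 9 neutrophil markers lay between -1.34 and -0.07 with a median of -1.04, and 8 of them were called lower. Cxcr6 differed by -0.84 ± 0.17 (adjusted p = 3.25e-05), a call lost without E2 sample 1 (adjusted p = 0.0741) or EE sample 11 (0.115). Ccl12 was lower by 1.35 ± 0.35 (adjusted p = 0.00266), lost without E2 sample 1 (0.0668), E2 sample 2 (0.135) or EE sample 11 (0.0742). Ccl9 differed by -0.87 ± 0.18 (adjusted p = 6.99e-05), lost panel-scaled (0.116) and without either E2 sample (0.0607 and 0.138). Ackr2 differed by -0.66 ± 0.23 (adjusted p = 0.0306), lost without any single E2 or EE sample (0.0506 to 0.448).

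The other 22 members were not called between the estrogens on the deposited scale, although 12 of them were called under at least 1 alternative. Their 95% intervals hold for the deposited scale only, are not adjusted for the number of genes and rest mainly on the shared spread. An interval can thus leave out 0 without a call. Scaling on gene totals moved the median gene by 0.26 and scaling on the positive controls by -0.23. The 95% interval was -0.57 to -0.05 for Ccr7, -0.40 to 0.11 for Cxcr4, -0.59 to -0.05 for Cxcr5, -0.45 to 0.21 for Cxcr3 and 0.01 to 0.57 for Ccl5. It was wider for low counts, as for Ccl7 (-0.87 to 0.50) and Ccr10 (-0.49 to 1.01). Ccr3 (0.39 ± 0.15, adjusted p = 0.0615) and Cx3cr1 (-0.72 ± 0.28, adjusted p = 0.0591) lay next to the threshold, and Ccr3 passed it panel-scaled (0.51, adjusted p = 0.0219), as did Ccr6 (0.38, adjusted p = 0.0219). Scaling on gene totals also put Ccl5, Cxcl9, Cxcl10 and Ccrl2 higher in EE, and scaling on the positive controls put Ccl3, Ccl6, Ccr7, Cx3cr1, Cxcr5 and Xcl1 lower. Cx3cr1 was further called without EE sample 14 (-1.08, adjusted p = 0.0364).

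**Figure D4:**
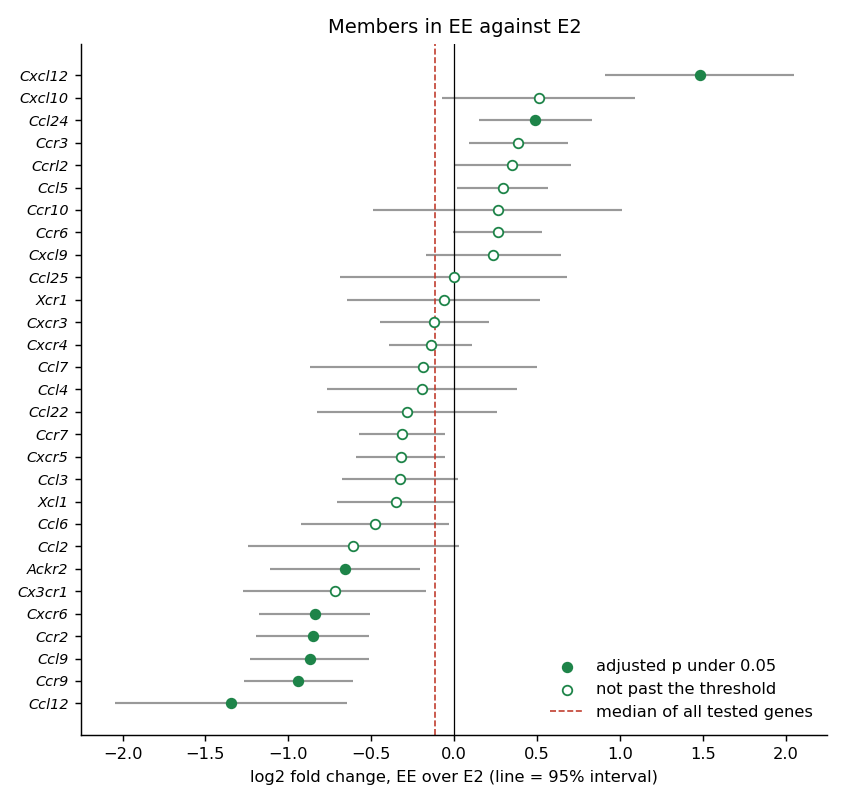
Log2 fold change of EE over E2 (x axis) with its 95% interval for 29 tested members; filled points have an adjusted p under 0.05 and the dashed line is the median of all tested genes, -0.11. Cxcl12 stands highest and Ccl12 lowest.

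Many lower calls depended on the scale. Panel scaling raised the median gene by 0.56 in E2 and 0.68 in EE. Over 5 scalings, 5 members were higher and 5 lower than placebo under each of them for E2, and 5 were higher and 6 lower for EE. For E2 the higher ones were Ccl12, Ccl22, Ccl24, Ccr3 and Ccrl2 and the lower ones Ccl3, Ccl5, Cxcl9, Ccr7 and Ccr9. For EE the higher ones were Ccl12, Ccl24, Cxcl12, Ccr3 and Ccrl2, and the lower ones included Ccl3, Ccr7, Ccr9, Cx3cr1 and Cxcr6. Among the 5 scalings, that on the reference rows already level moved the median gene by only -5.9e-05 in E2 and -3.9e-04 in EE. Its agreement was thus fixed in advance. How many of all genes kept their call under every scaling was not counted.

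**Figure D5:**
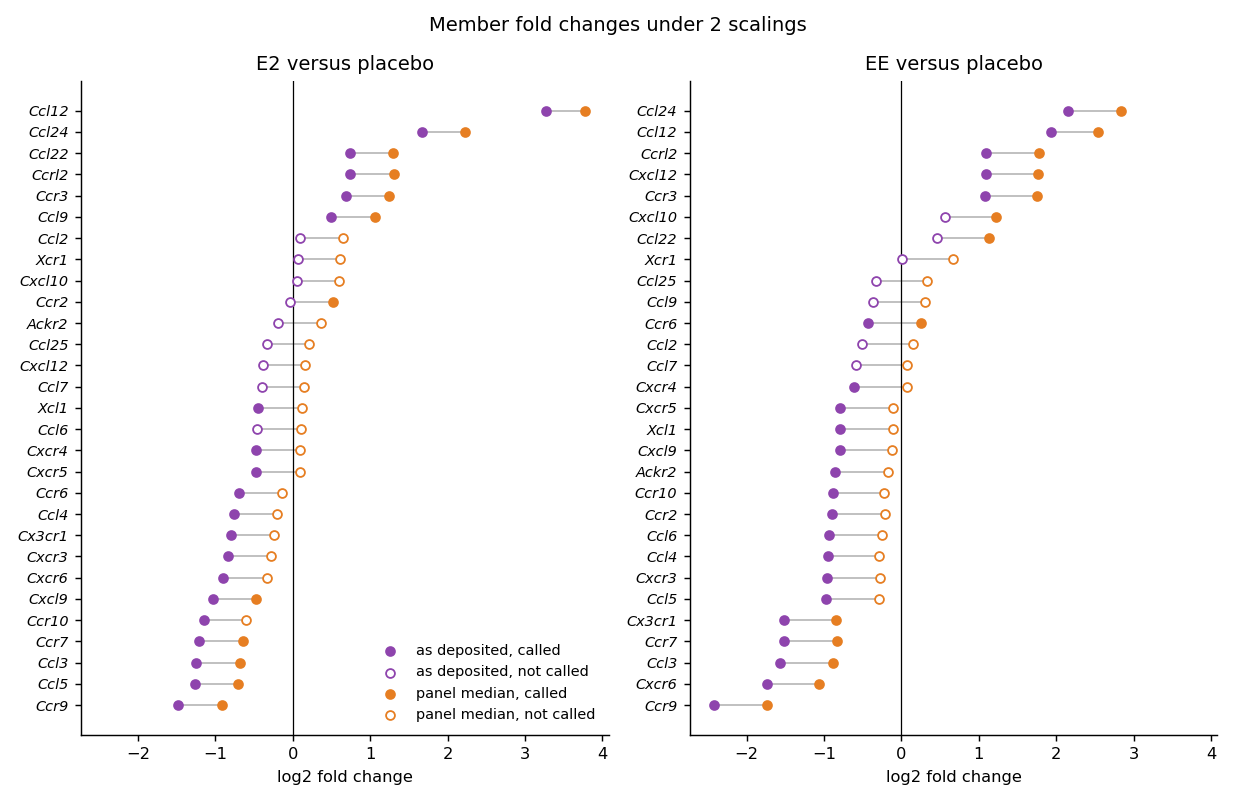
Log2 fold change (x axis) of 29 tested members against placebo for E2 (left) and EE (right), as deposited (purple) and with samples scaled on the panel median (orange); filled points have an adjusted p under 0.05. Panel scaling moves all points right, and Ccl3, Ccr7 and Ccr9 stay called lower under both estrogens.

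Other genes of chemoattraction were read from lists chosen with earlier results of these data known. Of the 5 tested chemokines with other symbols and non-chemokine attractant receptors, 3 rose and 1 fell under E2, and 2 rose and 1 fell under EE. For all genes, 13.8% rose and 59.5% fell under E2, and 15.8% rose and 63.5% fell under EE. The platelet chemokine Ppbp rose by 1.40 ± 0.15 and 2.92 ± 0.15, and Ltb4r1, the leukotriene B4 receptor of neutrophils, by 2.30 ± 0.25 and 1.26 ± 0.25; Ppbp is also on the platelet list and Ltb4r1 on the neutrophil list. Gpr183, the oxysterol receptor that positions B cells and dendritic cells, fell by 0.80 and 0.93, and both its calls were lost panel-scaled (adjusted p = 0.0893 and 0.0751). Of 9 adhesion molecules and enzymes that act with chemokines, 7 fell under E2 and 6 under EE with 0 higher, while 59.5% and 63.5% of all genes fell. Dpp4, a protease that trims chemokines, was at -0.66 and -1.16, while Cd44 and Mif lay between -0.05 and 0.06 and were higher panel-scaled under each estrogen. Of 12 cytokines and factors that induce chemokines, 9 fell under E2, and 10 fell and 1 rose under EE, beside the same shares of all genes. The riser was Il1a (1.13 ± 0.33), and panel-scaled 4 of the 12 were lower under each estrogen and 1 higher. On that scale 23.0% and 27.8% of all genes were lower under E2 and EE, and 29.3% and 31.1% higher.

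RefSeq promoter windows of 300 bases, 250 before to 50 after the start (build GRCm38.p6), were held for 33 of the 44 members, in 37 windows. They are shown for members that moved under estrogen in different ways, since estrogen receptors bind DNA at a known element. Capitals mark an arm of that element, GGTCA or, on the other strand, TGACC.
Ccl12, chr11:82101595-82101894, plus strand: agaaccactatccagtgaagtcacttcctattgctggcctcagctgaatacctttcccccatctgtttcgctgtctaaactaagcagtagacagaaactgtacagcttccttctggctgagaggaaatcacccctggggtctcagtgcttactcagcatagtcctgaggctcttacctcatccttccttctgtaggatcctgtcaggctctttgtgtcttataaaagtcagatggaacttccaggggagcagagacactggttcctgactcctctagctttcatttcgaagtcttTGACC
Ccl3, chr11:83649329-83649628, minus strand: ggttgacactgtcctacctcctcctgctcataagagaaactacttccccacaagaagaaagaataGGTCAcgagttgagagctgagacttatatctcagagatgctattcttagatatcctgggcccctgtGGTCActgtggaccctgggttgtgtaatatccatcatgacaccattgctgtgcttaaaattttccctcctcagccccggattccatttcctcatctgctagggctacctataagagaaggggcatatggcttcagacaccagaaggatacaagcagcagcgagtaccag
Cxcl12, chr6:117168285-117168584, plus strand: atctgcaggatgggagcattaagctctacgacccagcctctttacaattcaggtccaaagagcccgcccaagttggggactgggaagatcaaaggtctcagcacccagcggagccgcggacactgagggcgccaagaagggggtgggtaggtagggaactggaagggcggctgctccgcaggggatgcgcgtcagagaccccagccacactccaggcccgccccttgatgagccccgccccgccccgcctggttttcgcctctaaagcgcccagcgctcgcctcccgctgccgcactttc
Ccr9, chr9:123766961-123767260, plus strand: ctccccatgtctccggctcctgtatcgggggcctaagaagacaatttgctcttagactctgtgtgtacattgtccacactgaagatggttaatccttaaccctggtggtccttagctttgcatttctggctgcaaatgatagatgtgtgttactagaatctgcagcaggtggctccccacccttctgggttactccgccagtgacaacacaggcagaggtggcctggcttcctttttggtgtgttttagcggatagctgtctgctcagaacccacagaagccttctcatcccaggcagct
The full palindrome GGTCANNNTGACC was in 0 of the 37 member windows and in 0.07% of 32851 windows of all genes. The single arm, searched on both strands and contained in the palindrome, was in 18 of the 37 member windows, or 48.6%, and in 40.5% of all windows. Among the 4 shown, Ccl12 held 1 such arm and Ccl3 held 2, while Cxcl12 and Ccr9 held 0. A match describes these letters only.

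The 14 members below the mean of 20 were the ligands Ccl8, Ccl11, Ccl19, Ccl20, Ccl26, Cx3cl1, Cxcl1, Cxcl3, Cxcl13 and Cxcl15 and the receptors Ackr4, Ccr4, Ccr8 and Cxcr1. Their values ranged from 1 to 29, and 5 members were at or below background in all 6 samples. Cxcl13, the follicular ligand of Cxcr5, was 13 and 16 in E2, 14 and 16 in EE, and 20 and 22 in placebo. Ccl19, a T zone ligand of Ccr7, was 18 and 10, 29 and 13, and 16 and 6. All 14 members lay below the filter and had no test in the main fit. An alternative without the filter fitted them, and its results for them are not given here.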

How the data were processed

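RNA from splenocytes was counted on the nCounter mouse immunology panel, and 1 table of 575 rows was used, of which 561 were genes and 14 spiked-in controls. Background handling and software before deposit are not given in the sources used here. All deposited values were taken as a score, counts scaled on reference genes and rounded to whole numbers. The geometric mean of 12 named reference genes and 2 of the 12 unnamed rows (best of 66 pairs) varied by 0.06% over the samples. With the next best pair it varied by 1.76%. The 2 rows were found by this search. By the rule in the design, limma therefore replaced the count test, and DESeq2 and edgeR were not run.

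Symbols came from a RefSeq table (assembly GRCm38.p6) through unversioned transcripts, which named 549 gene rows. The test was limma 3.58.1 (R 4.3.3), lmFit and eBayes with a trend on log2(value + 1), group means over all 6 samples with 3 residual degrees of freedom, two-sided, Benjamini-Hochberg adjusted over 457 genes at 0.05, with no minimum fold. Where an estrogen group was compared with placebo values at background, the bound used the background level, 2 SD above the negative-control mean. The scripts were tested on simulated data.

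The members and lists were chosen with earlier results of these data known. The rule for members given sample by sample took, per comparison, called members without overlap, up to 8 rises and 8 falls; the others named beyond it, and the 12 plotted, were chosen after their values were seen. Alternatives were other scalings, filters, pseudocount, spread estimates and each sample left out in turn, where the lone sample left is assumed to vary like the other groups. Scaling on gene totals and on the 14 level rows was added after the data were seen. The precision is limited by 2 samples per group, and p-values cover only their spread. Single values of 1 tested member and 1 gene of the partner lists are not reported here; counts and medians include them.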

Additional observations from a re-analysis of the deposited data

How the results depend on the processing

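On the panel median, all genes called higher and lower numbered 134 and 105 for E2 against placebo, 142 and 127 for EE against placebo, with 25 lower for EE against E2; members lower numbered 5 for E2, members higher 8 and lower 6 for EE, and members higher 4 for EE against E2. On positive controls 40 genes were higher for EE against placebo, and for EE against E2 10 genes were higher and 117 lower, with 1 member higher and 12 lower. On gene totals 83 genes were higher and 17 lower for EE against E2, with 8 members higher. Without a trend, EE against E2 gave 10 genes higher and 21 lower, and 1 member higher and 3 lower. Leaving out each sample in turn gave, for EE against E2, 7 to 28 genes higher and 15 to 49 lower, and 1 to 2 members higher and 2 to 6 lower.

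A turn of direction was counted only where the main fit or the alternative called the member. On the panel median it was seen for Ccr2 (0.52), Cxcr4 (0.09), Cxcr5 (0.09) and Xcl1 (0.12) in E2 against placebo. In EE against placebo it was seen for Ccr6 (0.25) and Cxcr4 (0.07). Without placebo sample 26, Ccl9 turned in E2 against placebo (-0.01, with 1.01 the highest over the samples left out). Further members turned without a call in either fit, such as Cxcl12 panel-scaled in E2 against placebo (0.16). Of the 90 results for single members (30 members in 3 comparisons), 41 kept their call, or lack of one, under every alternative run. With the direction kept, 29 lost their call under at least 1 alternative and 18 gained one. In E2 against placebo, Cxcr4 lost its call and Ccr2 gained one only where the direction turned, on the panel median. The cause was not tested. DESeq2 was not run, since the values were not taken as raw counts. No paired analysis was possible because the groups share no replicate numbers. Values near background, between 10.1 and 13.7, have little precision.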
